A study of Mus musculus with 6 samples.

Results

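The secretase genes encode the proteases that cut the amyloid precursor protein, and 9 of them are described here: the alpha-secretases Adam10 and Adam17, the beta-secretase Bace1 with its homologue Bace2, and the gamma-secretase genes Psen2, Ncstn, Aph1a, Aph1b and Psenen. They were chosen by name and role, with earlier results of these data known, and all 9 were found by Ensembl identifier among the 56923 genes of the table. Libraries came from punches of the locus coeruleus, the noradrenaline nucleus of the pons, of wild-type mice (WT libraries 62, 63 and 66) and of 5xFAD transgenic mice (5xFAD libraries 64, 65 and 79), with 3 libraries in each group. The 5xFAD line expresses human familial Alzheimer's disease transgenes under mouse Thy1 elements, which act mainly in neurons. The labels give no age, sex, batch or littermate relation, and do not say that each library is 1 animal. The p-values therefore measure only spread between these libraries, part of which may be technical. In the main test (limma) that spread was not each gene's own alone, but was drawn toward the trend over all tested genes. The column headers also carry a running suffix of unstated meaning that was lower for all WT than for all 5xFAD libraries.

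The amyloid precursor is cut along competing routes. Alpha-secretase cuts inside the amyloid-beta sequence and sheds the ectodomain, whereas beta-secretase cuts at the start of that sequence and leaves a fragment from which gamma-secretase releases amyloid-beta within the membrane. ADAM10 is regarded as the main constitutive alpha-secretase of neurons and ADAM17 as a stimulated sheddase best known for releasing tumour necrosis factor. BACE1 is the main beta-secretase of brain, and BACE2 is its homologue, better known from pancreas and pigment cells. Gamma-secretase is an assembly of a catalytic presenilin, nicastrin (Ncstn), an APH1 protein and the small subunit PEN-2 (Psenen), and it also cuts Notch receptors and many other membrane stubs. The comparison below asks whether the transcripts of this machinery differed between 5xFAD and WT tissue.

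No secretase gene passed the threshold between the genotypes. All 9 were among the 16411 genes tested with limma on log2(normalized count + 1), where a normalized count is a gene's reads divided by the size factor of its library. Of these genes 6 had higher and 3 had lower values in 5xFAD, 0 of 9 passed at an adjusted p of 0.05 (limma, Benjamini-Hochberg over all tested genes, adjusted p = 0.9995 for each), and none (0 of 9) reached an unadjusted p under 0.05. Over all tested genes 0.00609% passed the adjusted threshold and 2.32% had an unadjusted p under 0.05. The edgeR and DESeq2 tests on recovered reads also called none of the 9. The median log2 fold change of 5xFAD over WT, called the log2 difference from here on, was 0.033 over the 9 genes and 0.00053 over all tested genes, and the median size of the change regardless of sign was 0.061 and 0.075. The 95% interval excluded a change of 1.5-fold in either direction for 8 of the 9 genes, the exception being Bace2, and for 71.4% of all tested genes.

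**Figure D1:**
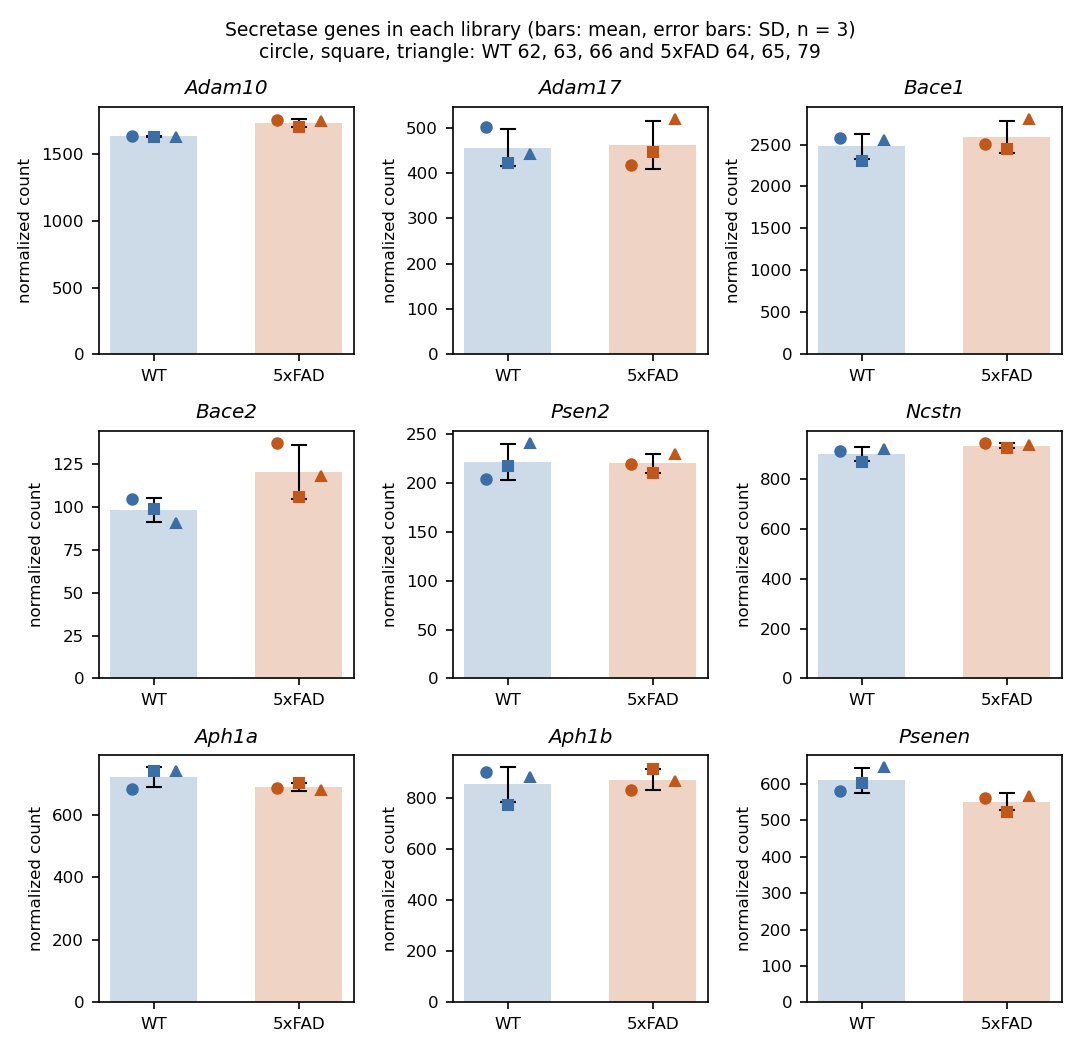
Normalized counts of the 9 secretase genes, 1 panel per gene, with all axes starting at 0. Bars are group means, error bars are SD over 3 libraries, and symbols are single libraries; the WT and 5xFAD points are apart in Adam10, Bace2, Ncstn and Psenen and intermixed in the other 5 genes.

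Adam10 (ENSMUSG00000054693.15), the main alpha-secretase, had nearly the same count in every library of a group. Its normalized counts were 1640, 1633 and 1628 in WT against 1758, 1703 and 1750 in 5xFAD, that is 1634 ± 5.77 and 1737 ± 29.3 (SD, n = 3 each). Every 5xFAD library exceeded every WT library, by a narrow margin. The log2 difference was 0.088 (SE 0.050, 95% interval −0.024 to 0.20), a 1.06-fold ratio of means that was not past the threshold. The spread of Adam10 within groups, an SD of 0.018 on the log2 scale, was below the 0.035 that read counting alone gives at its depth. A smaller spread was found in 0.244% of tested genes. The SE of 0.050 does not rest on this spread alone, because limma draws each gene's variance toward the trend over all tested genes.

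Adam17 (ENSMUSG00000052593.17), the inducible sheddase, read 502, 423 and 443 in WT against 417, 447 and 520 in 5xFAD. The groups overlapped throughout. Its log2 difference was 0.014 (SE 0.10, 95% interval −0.22 to 0.24), and this small value had the opposite sign under quantile normalization (−0.00063).

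Bace1 (ENSMUSG00000032086.13), which makes the first cut toward amyloid-beta, had the highest read count of the 9 genes. Its normalized counts were 2579, 2307 and 2555 in WT against 2511, 2447 and 2806 in 5xFAD, or 2480 ± 151 and 2588 ± 192 (SD, n = 3 each). The groups overlapped, with WT 63 lowest and 5xFAD 79 highest. The log2 difference of Bace1 was 0.061 (SE 0.070, 95% interval −0.096 to 0.22), so the interval reached from a 0.935-fold to a 1.16-fold change. The value was 0.00088 without 5xFAD 79, 0.0092 without WT 63 and 0.0997 without 5xFAD 65.

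Bace2 (ENSMUSG00000040605.8), the homologue of Bace1, had the lowest count and the largest difference among the 9 genes. It read 105, 98.9 and 90.9 in WT against 138, 106 and 118 in 5xFAD, or 98.2 ± 7.06 and 121 ± 15.9 (SD, n = 3 each). All 5xFAD libraries were above all WT libraries, but 5xFAD 65 exceeded WT 62 by about 1 count. The log2 difference of 0.29 (SE 0.15, 95% interval −0.046 to 0.62) was not past the threshold, and it was 0.19 without 5xFAD 64, the highest library. The interval extended to a 1.54-fold rise, which is above 1.5-fold, with 89 to 119 reads per library. Its size was exceeded by 11.2% of all tested genes.

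**Figure D2:**
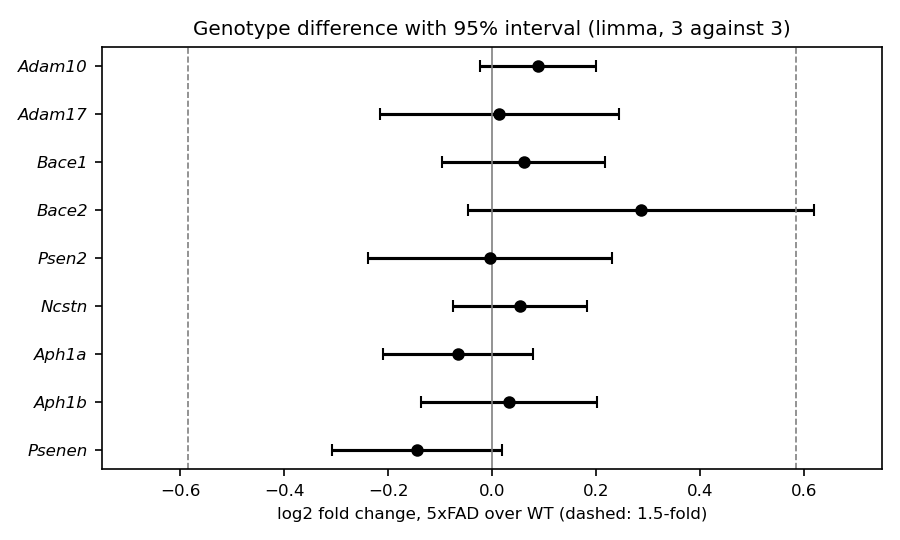
Log2 fold change of each secretase gene, 5xFAD over WT, with its 95% interval from limma (points and bars); dashed lines mark 1.5-fold. All 9 intervals include 0, and the interval of Bace2 alone crosses a dashed line.

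Among the gamma-secretase genes, Psenen (ENSMUSG00000036835.8) had the largest difference. PEN-2, its product, completes the complex and triggers the internal cleavage that activates presenilin. Psenen read 579, 603 and 647 in WT against 563, 524 and 568 in 5xFAD, or 610 ± 34.5 and 552 ± 23.9 (SD, n = 3 each). All 5xFAD libraries lay below all WT libraries, with 5xFAD 79 and WT 62 closest. The log2 difference was −0.14 (SE 0.073, 95% interval −0.31 to 0.019), which was not past the threshold and stayed between −0.18 and −0.10 when any 1 library was left out. Psenen overlaps 2 protein-coding genes on the opposite strand in GENCODE M21, with 119 exon bases shared with U2af1l4 and 111 with Gm49396. Whether counting used strand is not given in the sources used here. Reads in the shared bases therefore cannot be assigned with certainty. U2af1l4 had a log2 difference of −0.15 (SE 0.11) and Gm49396 one of 0.26 (SE 0.11), and their part in the value of Psenen was not tested. Of the other members, Bace1, Adam17, Ncstn and Aph1a also share exon bases with genes on the opposite strand, which leaves the reads there uncertain in the same way. For Bace1 these are 975 bases with Rnf214, 951 with Gm49338 and 135 with the antisense gene Gm16536, whose log2 differences were −0.00025 (SE 0.083), 0.062 (SE 0.14) and 0.072 (SE 0.095). The shared exon bases were 445 for Aph1a with Car14, 311 for Adam17 with Iah1 and 195 for Ncstn with Copa. Copa had a mean of 5172 normalized counts in WT, against 901 for Ncstn. The log2 differences were −0.016 (SE 0.27) for Car14, −0.22 (SE 0.16) for Iah1 and −0.062 (SE 0.052) for Copa. The part of these genes in the values of the members was not tested.

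Ncstn (ENSMUSG00000003458.13) encodes nicastrin, the large glycoprotein that gates which stubs reach the active site. It read 914, 868 and 921 in WT against 945, 923 and 936 in 5xFAD, or 901 ± 28.7 and 935 ± 10.9 (SD, n = 3 each). The 5xFAD libraries were all higher, but 5xFAD 65 exceeded WT 66 by under 3 counts. The log2 difference was 0.054 (SE 0.057, 95% interval −0.075 to 0.18), and 0.027 without WT 63.

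Psen2 (ENSMUSG00000010609.16), a presenilin and thus a catalytic subunit, read 204, 218 and 241 in WT against 220, 210 and 230 in 5xFAD. Its log2 difference of −0.0048 (SE 0.10, 95% interval −0.24 to 0.23) was the smallest of the 9 in size. The 5xFAD values all fell within the WT range.

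The scaffold subunit comes from alternative genes. Aph1a (ENSMUSG00000015750.16), the broadly used form, read 682, 740 and 738 in WT against 684, 701 and 678 in 5xFAD, with a log2 difference of −0.066 (SE 0.064, 95% interval −0.21 to 0.078). Aph1b (ENSMUSG00000032375.16), a form tied to neuronal gamma-secretase complexes, read 900, 772 and 882 in WT against 830, 913 and 867 in 5xFAD, with a log2 difference of 0.033 (SE 0.076, 95% interval −0.14 to 0.20). Both genes overlapped between the groups. The Aph1a value was −0.10 without WT 62, and the Aph1b value turned to −0.036 without WT 63, to −0.0025 without 5xFAD 65 and was 0.074 without WT 62.

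Rodents carry a near-copy of Aph1b, named Aph1c, which bears on how far the Aph1b count can be trusted. In GENCODE M21 (GRCm38, not the mm39 build of the authors) Aph1b lies at chr9:66775202-66795490 and Aph1c at chr9:66814994-66834726, both on the minus strand. The whole transcripts of Aph1b and Aph1c, 4910 and 5205 bases long, were identical at 66.0% of aligned positions, so the likeness is closest in the coding part. Their coding sequences, 771 and 774 bases long, were identical at 95.9% of aligned positions, with 29 mismatches. The longest identical run was 341 bases in both alignments. Aph1a and Aph1b coding sequences were identical at 58.8%. The first 150 coding bases hold 16 of the mismatches and are shown 5′ to 3′ from the GENCODE transcripts, with the differing bases in capitals:
Aph1b: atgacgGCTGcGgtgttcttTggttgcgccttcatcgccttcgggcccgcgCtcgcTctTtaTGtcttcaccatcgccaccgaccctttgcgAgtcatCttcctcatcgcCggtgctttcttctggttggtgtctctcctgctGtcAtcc
Aph1c: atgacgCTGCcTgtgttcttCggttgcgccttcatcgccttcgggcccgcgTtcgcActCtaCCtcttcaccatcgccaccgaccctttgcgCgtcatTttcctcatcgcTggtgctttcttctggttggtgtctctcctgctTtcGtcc
Fragments from this end can be told apart, but fragments inside the identical run cannot, and the authors' tool for estimating counts, RSEM, shares such reads between the genes. Aph1c read 163, 193 and 159 in WT against 171, 168 and 209 in 5xFAD, with a log2 difference of 0.087 (SE 0.13). With the counts of Aph1b and Aph1c added together, an alternative chosen after the values were seen, the log2 difference was 0.041, against 0.033 for Aph1b alone, and neither was past the threshold.

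Values of the groups did not overlap in 4 of the 9 genes, Adam10, Bace2 and Ncstn with higher and Psenen with lower values in 5xFAD, against 7.42% of all tested genes. The margins were narrow, and with quantile normalization 2 of the 9 (Adam10 and Psenen) remained apart. With TMM scaling or scaling by total reads in genes the same 4 were apart. The authors' deposited table, with its sign turned to 5xFAD over WT, gives log2 differences from −0.14 for Psenen to 0.29 for Bace2, and an adjusted p of 0.9999 for each of the 9 genes.

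The spread within groups was near that of read counting alone for several genes. The SD within groups on the log2 scale was 0.15 for Bace2, against 0.14 from counting alone at its depth, 0.096 against 0.097 for Psen2, 0.050 against 0.054 for Aph1a, 0.035 against 0.048 for Ncstn and 0.073 against 0.060 for Psenen. It was larger than counting for Bace1 (0.097 against 0.029), Adam17 (0.15 against 0.068) and Aph1b (0.098 against 0.049). The median over the 9 genes was 0.096, and over all tested genes 0.14.

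Levels of different genes were compared per kilobase of exon, with lengths from GENCODE M21. Psenen was highest, at 455 ± 32.6 normalized counts per kilobase (SD over all 6 libraries), followed by Bace1 at 399 ± 26.0, and the ranges of these neighbours overlapped. Adam10 came next at 343 ± 12.1 normalized counts per kilobase, then Ncstn at 231 ± 6.77, Aph1a at 204 ± 8.20 and Aph1b at 167 ± 10.1. Adam17 at 64.1 ± 5.93, Psen2 at 50.9 ± 3.08 and Bace2 at 13.9 ± 2.08 normalized counts per kilobase were the lowest. Apart from Psenen and Bace1, each range lay wholly above the next, so the punches held more transcript of the main alpha- and beta-secretase than of their relatives. The order depends on the gene model: with the longest transcript as length Psenen rose to 820 per kilobase, the ranges of Bace1 and Adam10 overlapped, and Psen2 (109) and Adam17 (103) changed places with overlapping ranges.

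**Figure D3:**
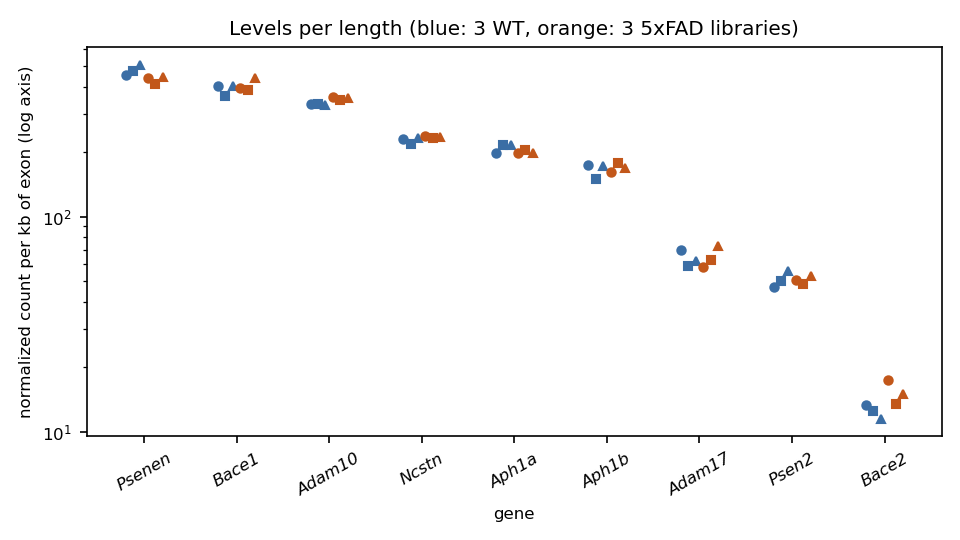
Normalized counts per kilobase of exon for the 9 secretase genes in each of the 6 libraries, on a log axis, ordered by mean. Within each gene the WT and 5xFAD points lie close together, while the genes span from about 13.9 (Bace2) to 455 (Psenen).

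Ratios of 2 genes within a library do not depend on scaling between libraries, and 5 were compared between genotypes with an exact permutation test (two-sided), which for 3 against 3 gives no p below 0.1. Adam10 to Bace1, the main alpha- against the main beta-secretase by read count, was 0.636, 0.708 and 0.637 in WT against 0.700, 0.696 and 0.623 in 5xFAD. These values overlapped, with a difference of 0.028 on the log2 scale (exact permutation p = 1, adjusted p = 1 over the 5 ratios). Adam10 to Adam17 was 3.26, 3.86 and 3.68 in WT against 4.21, 3.81 and 3.37 in 5xFAD (exact permutation p = 0.5, adjusted p = 0.625).

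Bace1 to Bace2 was 24.6, 23.3 and 28.1 in WT against 18.3, 23.1 and 23.8 in 5xFAD, a log2 difference of −0.23 (exact permutation p = 0.2, adjusted p = 0.5) that was −0.11 without 5xFAD 64 and −0.15 without WT 66. Aph1a to Aph1b, which sets the 2 scaffold forms against each other, was 0.759, 0.958 and 0.837 in WT against 0.825, 0.768 and 0.782 in 5xFAD (exact permutation p = 0.5, adjusted p = 0.625). Its log2 difference of −0.099 was −0.010 without WT 63 and −0.18 without WT 62. Psenen to Ncstn, a pair of subunits of the same complex, was 0.634, 0.695 and 0.703 in WT against 0.595, 0.568 and 0.607 in 5xFAD. This was the 1 ratio whose groups did not overlap, with a log2 difference of −0.20 that held its sign without any 1 library (exact permutation p = 0.1, the smallest possible, adjusted p = 0.5). Every 5xFAD library lay below every WT library in Psenen and above it in Ncstn. The separation of the ratio, its steady sign and its p-value therefore follow from the values of the 2 genes and add no further result.

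**Figure D4:**
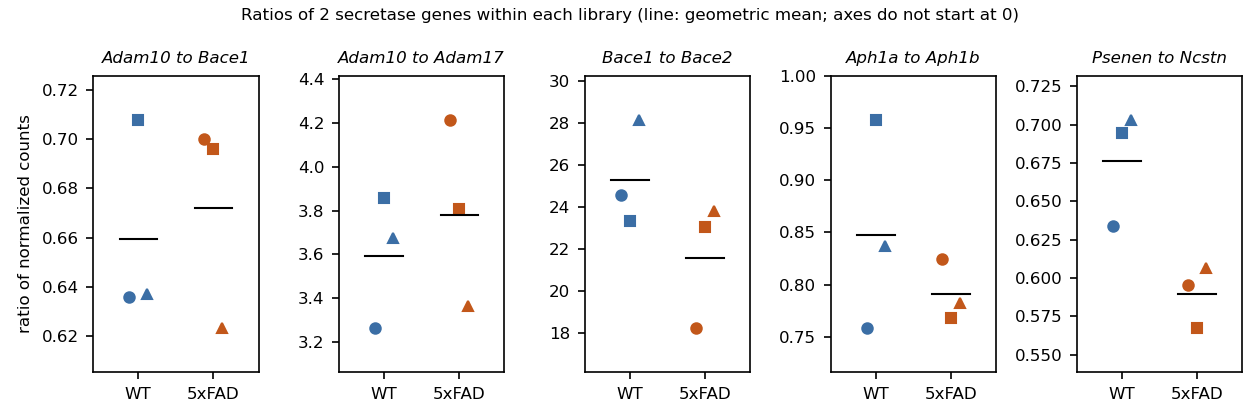
Ratio of normalized counts of 2 secretase genes in each library, 1 panel per ratio, with axes that do not start at 0; symbols are libraries and lines are geometric means. Psenen to Ncstn is lower in all 3 5xFAD libraries, from 0.568 to 0.607 against 0.634 to 0.703 in WT, and the other 4 ratios overlap.

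Genes that act on the secretases or are cut by them were read from 6 lists of 87 genes, 81 of them tested. None passed in the limma test (0 of 81), 37 were higher and 44 lower in 5xFAD, and an unadjusted p under 0.05 was reached by 2, a share close to the 2.32% over all tested genes. Groups did not overlap in 2 of the 81, Tspan5 and the interleukin-6 receptor gene Il6ra, the second being named after its values were seen, a smaller share than the 7.42% over all tested genes.

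Regulators of ADAM10 and ADAM17, which include the tetraspanins that carry ADAM10 to the surface, the iRhom partners of ADAM17, activating convertases and inhibitors, had 12 higher and 4 lower values of 16 tested, with a median log2 difference of 0.10. Tspan5, a tetraspanin partner of ADAM10, read 1347, 1222 and 1359 in WT against 1387, 1399 and 1459 in 5xFAD (log2 difference 0.11, SE 0.062). Tspan17, another such partner, had a log2 difference of −0.19 (SE 0.090), and Frmd8, which stabilises the ADAM17 complex, one of 0.20 (SE 0.14). Tspan10 and Timp1 were under the filter on low values.

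Genes of BACE1 trafficking and retention, sorting adaptors, reticulons and retromer subunits, had 4 higher and 9 lower values of 13, with a median of −0.019. Usp8, a deubiquitinase reported to spare BACE1 from lysosomal breakdown, read 2582, 2286 and 2442 in WT against 2295, 2018 and 2225 in 5xFAD. Its groups overlapped through 5xFAD 64 and WT 63, and its log2 difference of −0.16 (SE 0.068) did not pass. The retromer subunit Vps26a had a log2 difference of −0.072 (SE 0.060) and the reticulon Rtn3, which retains BACE1, one of −0.057 (SE 0.062).

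Modulators of gamma-secretase had 3 higher and 5 lower values of 8 and a median log2 difference of −0.0088. Ifitm3, an interferon-induced protein that binds gamma-secretase, had 0.22 (SE 0.18), Gsap 0.23 (SE 0.26) and Rer1, a retention factor for unassembled subunits, −0.061 (SE 0.066). The presenilin-related signal peptide peptidases had 0 higher and 4 lower values of 4, all small, namely Sppl2b at −0.031 (SE 0.089), Sppl2a at −0.021 (SE 0.058), H13 at −0.0082 (SE 0.082) and Sppl3 at −0.0032, and Sppl2c was under the filter.

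Other proteases reported to cut the precursor had 3 higher and 4 lower values of 7, with a median of −0.040. Mmp24, which makes the eta cut, had a log2 difference of 0.30 (SE 0.27), the related metalloproteinase Mmp14 one of −0.087 (SE 0.11) and Adam8 one of 0.14 (SE 0.19), while Mep1b was under the filter. Mmp24 was highest in the libraries with most cerebellar transcript, described below, at 766 normalized counts in 5xFAD 65 and 641 in WT 63. Some other listed genes were also highest in these libraries, whereas Bace1 was lowest there, at 2447 in 5xFAD 65 and 2307 in WT 63. These libraries also had the lowest sums of oligodendrocyte markers, at 199494 in 5xFAD 65 and 206587 in WT 63. The highest sum was in 5xFAD 79 (311565), where Bace1 was also highest (2806). A link with cerebellar or oligodendrocyte transcript was not tested.

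Other substrates of the secretases had 15 higher and 18 lower values of 33, with a median of −0.012, and Tnf and Areg were under the filter. The hyaluronan receptor Cd44 had a log2 difference of 0.50 (SE 0.22) at 40.9 to 79.7 normalized counts, the ephrin receptor Epha4 one of −0.12 (SE 0.065) and the growth factor Nrg1, a BACE1 substrate in myelination, one of −0.16 (SE 0.091). App itself, the shared substrate, had a log2 difference of −0.018 (SE 0.062), which does not separate mouse from any human transgene reads that map to it.

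**Figure D5:**
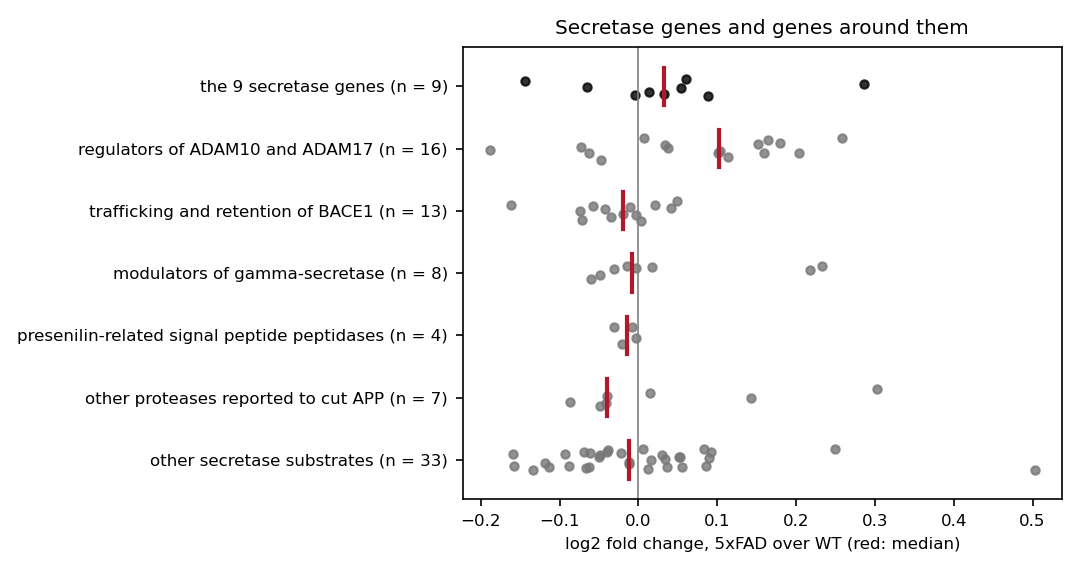
Log2 fold change, 5xFAD over WT, of each tested gene (points) for the 9 secretase genes and 6 lists of genes around them, with red lines at the medians. The points of every list lie on both sides of 0 except the 4 signal peptide peptidases, and the medians run from −0.040 to 0.10.

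The genes whose values lay closest to those of a secretase gene over the 6 libraries were picked by the root mean square difference of log2 values. Values were centred on each gene's own mean. For Adam10 they were Mxi1, Adsl and Zfp938 (0.016, 0.017 and 0.018, against a median of 0.13 over tested genes). For Bace1 they were Hif1an, Kctd13 and Zswim6 (0.019, 0.021 and 0.024, median 0.15), and for Ncstn, the gamma-secretase gene with the highest count, Plxdc2, Fbxo45 and Ick (0.016, 0.016 and 0.017, median 0.13). All these points share the same 6 libraries, and near-constant genes are close by this measure. The genes are the closest picked from all named genes tested. Their differences were below the SD from read counting alone, which was 0.035 for Adam10, 0.029 for Bace1 and 0.048 for Ncstn. Whether any shares a pattern beyond this choice was not tested.

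The libraries held 15158712 to 20079349 reads in genes, and the 9 secretase genes had 89 to 2807 reads each per library. All 8 noradrenergic markers, among them Dbh and Th, had reads in every library, as the labelled nucleus requires, with a summed normalized count of 7957 to 14311 in WT and 11162 to 15743 in 5xFAD. Markers of other cells were present too, and their sums overlapped between the genotypes in all 7 other lists. Oligodendrocyte markers summed to 206587 to 261582 in WT and 199494 to 311565 in 5xFAD, and Purkinje cell markers to 3968 to 19447 and 7049 to 25495. Cerebellar granule markers ranged from 1984 to 5739 in WT and from 3251 to 7345 in 5xFAD, with 5xFAD 65 and WT 63 highest in both cerebellar lists. In bulk tissue fewer cells of a type and less RNA per cell cannot be told apart, and the part of cell makeup in the secretase values was not tested.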

How the data were processed

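Bulk poly-A RNA sequencing of locus coeruleus punches gave 3 WT and 3 5xFAD libraries, grouped by title. STAR, RSEM and DESeq2 are the tools, and mm39 the build, in the submitters' processing notes. Although the table is named as TPM, the authors deposited a signal, namely reads per gene scaled by a single size factor for each library. In every column 100% of values were a whole number of steps (tolerance 0.001), and the size factors from these steps (0.865 to 1.16) equalled those of the median-of-ratios method. The deposited table also holds the authors' log2 fold changes (WT over 5xFAD), a test score and p-values, per the file headers.

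Symbols were matched by identifier for 91.5% of genes. Genes reaching a normalized count of 10 in 3 or more libraries were kept. The test was limma 3.58.1 in R 4.3.3 (variance trend, robust moderation) on log2(normalized count + 1), a scale that understates the change of low genes. Adjustment was by Benjamini-Hochberg over the 16411 genes kept, with a threshold of 0.05. Before use, the fit was tested on simulated data. Alternatives were quantile and TMM scaling, no filter, a pseudocount of 5, plain moderation, edgeR 4.0.16 and DESeq2 1.42.0 on recovered reads, and leaving out each library. Exon lengths, overlaps and coding sequences came from GENCODE M21 (GRCm38), aligned with Biopython 1.88. Figures used matplotlib 3.10.9.

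The genes named were the 9 members, Aph1c, App, from each list the 3 with the smallest limma p, and for the member with the highest count in each class the 3 genes closest in pattern, unnamed gene models being passed over there. Genes under the filter on low values, genes that overlap a member, Sppl3 and Il6ra fall outside this rule and were named after their values were seen. The members and lists were chosen with earlier results of these data known. Overlaps were counted over exon bases of both genes.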

Additional observations from a re-analysis of the deposited data

How the results depend on the processing

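Over 118 recomputed log2 fold changes of the 9 genes, 0 reached an adjusted p under 0.05 (lowest limma adjusted p = 0.826), 110 kept their sign and 8 did not. Part of the 110 could not have turned. Dropping the filter or using plain moderation leaves the fold change itself as it was. For Adam10, Bace2, Ncstn and Psenen, whose groups did not overlap, leaving out 1 library cannot turn the sign. Adam17 turned to −0.00063 with quantile normalization. Leaving out 1 library gave −0.075 to 0.085 for Adam17, −0.036 to 0.074 for Aph1b and −0.059 to 0.059 for Psen2, and on the log2 scale −0.0015 to 0.082 for the Adam10 to Bace1 ratio and −0.0040 to 0.16 for Adam10 to Adam17. The other 6 genes kept their sign under every alternative run. Groups did not overlap in 4 of the 9 members, against 7.42% of all tested genes, and with quantile normalization in 2 of the 9, against 7.25% of all tested genes. The number of genes called in the whole table was 1, against 0 without variance trend and robust moderation (535 at an unadjusted p under 0.05), 4 with DESeq2 on recovered reads, 1 with edgeR and 0 to 2 when 1 library was left out. The causes were not tested. No paired analysis was run because the labels give no pairing or littermate relation. With 3 libraries a group, a change of Bace2 up to 1.54-fold lies within its interval.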
